A study of Drosophila melanogaster with 12 samples.

Results

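Piwi-bound small RNA of a cultured line of ovarian somatic cells was compared with Piwi-bound small RNA of whole Drosophila melanogaster ovaries. The comparison used 2 of the 12 libraries of a study of Krimper, a Tudor domain protein of the germline, in the piRNA pathway. The OSC library held RNA bound to ectopically expressed myc-Piwi, purified with a myc antibody from Ovarian Somatic Cells (OSC) in which krimp was knocked down. The ovary library held RNA bound to Piwi, purified with a Piwi antibody from ovaries of krimp heterozygous females, which the labels call control. Ovaries contain germline cells and somatic follicle cells, so the ovary library mixes both. Cell source, krimp status, tagged or endogenous protein and antibody all changed together between the libraries, and their parts cannot be told apart. Each library stood alone, with no replicate and no p-value, so every difference below describes these 2 libraries and was not checked against a spread between replicates.

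piRNAs guide Piwi-family proteins to transposon transcripts. In somatic cells Piwi works without Aub and AGO3, and its piRNAs are cut from long single-stranded precursors, best known from the flamenco locus and from the traffic jam mRNA, by a process that favours U at the 5′ end (1U). In germline cells Aub and AGO3 also amplify piRNAs by mutual cleavage, called ping-pong, which leaves A at position 10 (10A) and 5′ ends that overlap by 10 nt on opposite strands. OSC are used as a model of the somatic branch, and such cells are not known to make ping-pong pairs.

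The OSC file listed 860 sequences with 153885 reads, and the ovary file 49916 sequences with 18821357 reads. The lowest count listed in either file was 100 reads, so an unlisted sequence may have had up to 99 reads. Sequences of 23 to 29 nt were kept, and those that shared any 15 nt with 2S rRNA, a short insect ribosomal RNA of piRNA size, were dropped. The sequence that set this filter is shown because it decides which reads were dropped, and all of its 30 bases are in capitals.
2S rRNA: TGCTTGGACTACATATGGTTGAGGGTTGTA
It was the most abundant 30 nt sequence of the krimp heterozygous Aub library, with 2282758 reads, and T stands for U as in the files. The name was not checked letter by letter against a reference. Genes named 2S rRNA in the RefSeq gene table are also 30 nt long and lie on chromosome X, some of them listed under X and Y. 2S rRNA sequences held 1.08% of listed OSC reads and 7.73% of listed ovary reads. After both filters OSC had 836 sequences with 148941 reads, and the ovary had 48111 sequences with 16847260 reads. The smallest share a listed sequence could have was therefore 0.0671% of kept reads in OSC and 0.000594% in the ovary. The other piRNA sequences are described by their rank, length and bases and are not printed, since no genome was used to place them on a chromosome.

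OSC piRNAs began with U more often than ovary piRNAs when all kept reads were counted. The 1U share was 92.2% of OSC reads (exact Clopper-Pearson 95% interval 92.1 to 92.4) and 83.3% of ovary reads (83.2 to 83.3). Most of this gap was seen only with the longer ovary list. Among the 800 most abundant sequences of each library the 1U share was 92.2% of OSC reads and 90.2% of ovary reads. Counting each of those 800 once, 91.4% of OSC sequences (89.2 to 93.2) and 89.5% of ovary sequences (87.2 to 91.5) began with U, and these intervals overlap. The direction turned when the ovary was limited to the 21 sequences with a share that OSC could have listed, where 1U stood at 92.2% of OSC reads and 96.5% of ovary reads. Intervals cover counting error only, and reads from PCR without molecular identifiers are not independent, so those of read shares are too narrow.

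A at position 10 was rarer in OSC reads. The 10A share was 22.9% of OSC reads (22.7 to 23.1) and 27.3% of ovary reads (27.3 to 27.3). With each sequence counted once it was 24.8% of OSC sequences (21.9 to 27.8) and 27.4% of ovary sequences (27.0 to 27.8), so the difference was not detectable at this number of sequences. Against the 21 ovary sequences that OSC could have listed the gap by reads was wider, at 22.9% of OSC reads and 35.1% of ovary reads. Only 6 of these 21 sequences had 10A, and they include the leading ovary sequence, with 67325 reads. Over all kept reads a gap in A was not limited to position 10. OSC minus ovary was -4.53 percentage points at position 5, -5.11 at 9 and -5.23 at 11, against -4.41 at 10. At some positions A was more frequent in OSC, by 6.68 points at position 20. Ovary reads had no peak of A at position 10, with 27.7% at position 6 and 27.8% at position 7. Whether the gap at position 10 came from ping-pong was not tested. Reads with 10A and no 1U, the form that ping-pong gives to its secondary piRNAs, made up 1.47% of OSC reads and 4.68% of ovary reads. In the 800 most abundant sequences this class held 1.44% of OSC reads and 2.44% of ovary reads. Counting each of those 800 once, it was 1.75% of OSC sequences (0.960 to 2.92) and 2.625% of ovary sequences (1.63 to 3.98). These intervals overlap. Reads with both features were 21.4% in OSC and 22.6% in the ovary, and reads with neither were 6.30% in OSC and 12.1% in the ovary.

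OSC piRNAs were longer. Their reads averaged 26.5 nt against 26.3 nt in the ovary, a difference of 0.294 nt, or 0.304 nt among the 800 most abundant sequences. The most common length was 27 nt in OSC, with 29.3% of reads against 23% in the ovary. In the ovary it was 26 nt, at 27.7% of reads there and 29.1% in OSC. Reads of 23 to 25 nt were rarer in OSC. They stood at 0.318%, 3.44% and 15.9% of OSC reads and at 1.37%, 7.83% and 21.2% of ovary reads for 23, 24 and 25 nt. Reads of 29 nt were slightly rarer in OSC too, at 5.23% of OSC reads and 5.58% of ovary reads. Length hardly went with the starting base, since 1U reads averaged 26.6 nt in OSC and 26.3 nt in the ovary, and other reads 26.5 nt in OSC and 26.3 nt in the ovary.

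**Figure D1:**
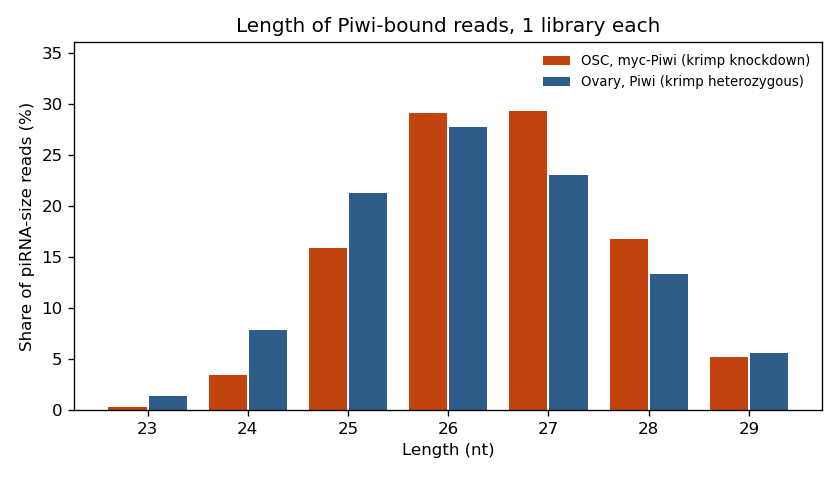
Share of kept reads at each length (x axis, nt; y axis, % of 23 to 29 nt reads without 2S rRNA), with OSC bars left of ovary bars, 1 library each. OSC bars are lower at 23 to 25 nt, and at 27 nt OSC stands at 29.3% and the ovary at 23%.

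OSC piRNAs were richer in U along their whole length. Averaged over positions 2 to 23, U made up 31.7% of bases in OSC reads and 26.3% in ovary reads. With each sequence counted once the values were 31.9% in OSC and 26.3% in the ovary. U was more frequent in OSC at 21 of these 22 positions, whether by reads, by distinct sequences or within the 800 most abundant. Position 2 was the exception, where U stood at 16% of OSC reads and 22.3% of ovary reads.

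The gap varied by position with no clear region, and by reads it was widest at positions 6 and 13. At position 15 it was narrow, with U in 28.0% of OSC reads and 26.9% of ovary reads. At position 22 U stood at 33.9% of OSC reads and 24.9% of ovary reads. At position 13, 39.5% of OSC reads and 27.7% of ovary reads had U, and at position 6, 36.6% of OSC reads and 24.6% of ovary reads. As distinct sequences, position 13 had U in 37.4% of the 836 OSC sequences (34.1 to 40.8) and 28.5% of the 800 most abundant ovary sequences (25.4 to 31.8). At 13 of the 22 positions the OSC interval by distinct sequence lay wholly above that of the ovary's 800. Overlapping sequences share bases, so these intervals are too narrow as well.

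Position 2 differed in another way. G stood there in 24.4% of OSC reads and 13.5% of ovary reads, and C in 24% of OSC reads and 32.5% of ovary reads. By distinct sequence G was at 23% in OSC (20.2 to 26) and 11.4% in the ovary's 800 most abundant (9.26 to 13.8), so these intervals do not overlap.

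**Figure D2:**
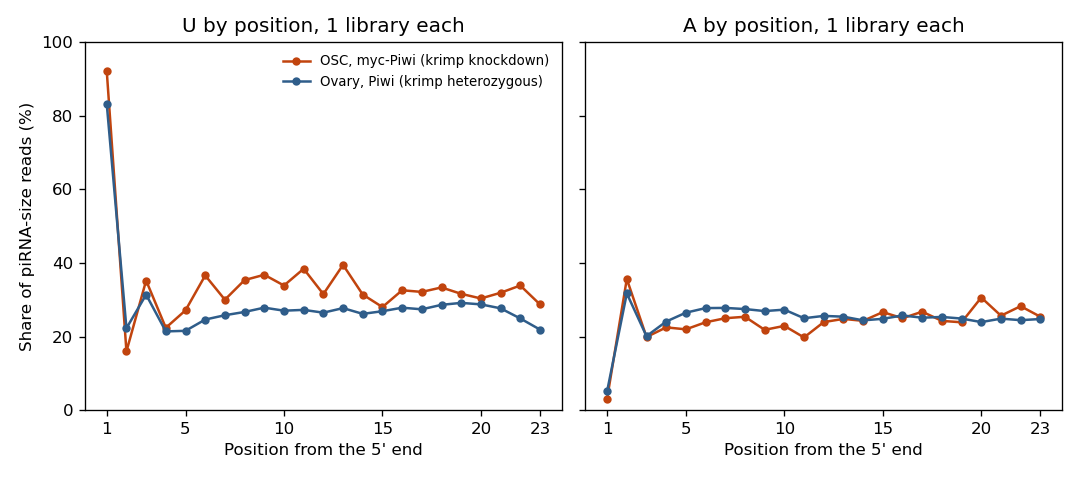
Share of kept reads (y axis, %) with U (left) or A (right) at positions 1 to 23 from the 5′ end (x axis), for 1 OSC and 1 ovary library. The OSC line for U lies above the ovary line at every position except 2, and the lines for A are closer, with 22.9% in OSC and 27.3% in the ovary at position 10.

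Most OSC piRNAs were not in the ovary list, although that list was far longer. Of the 836 OSC sequences, 282 were listed in the ovary with identical ends, or 33.7% (30.5 to 37.0). They held 36.9% of OSC reads. The same 282 were 0.586% of the ovary list and held 1.35% of ovary reads. Counted by 5′ end, as the first 18 nt, 320 of 745 OSC ends were listed in the ovary (43.0%, 39.4 to 46.6), which is 0.938% of its 34132 ends. Between the 800 most abundant of each library 20 sequences were shared, or 2.50% of either list, with 2.90% of OSC reads and 2.88% of ovary reads.

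Of the 554 OSC sequences that the ovary did not list, 90 were length variants of a listed one. These 90 had the 5′ end of an ovary sequence with another length, and 176 more overlapped an ovary sequence by at least 18 nt on the same strand from another 5′ end. A further 7 matched an ovary 5′ end with 1 mismatch in the first 18 nt, and 23 overlapped ovary sequences on the opposite strand only. The remaining 258 sequences, with 28.4% of OSC reads, had none of these matches. How far the genomes of the cell line and of the flies differ was not tested beyond this count of 1-base mismatches in the first 18 nt. An unlisted sequence could have had up to 99 ovary reads, so the shares of the 554 were at least 114-fold higher in OSC, with a median bound of 158-fold. The 114-fold minimum is set by the lowest listed count and the read totals. Any OSC sequence that the ovary did not list would pass it. These folds compare shares of listed reads, not of whole libraries.

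**Figure D3:**
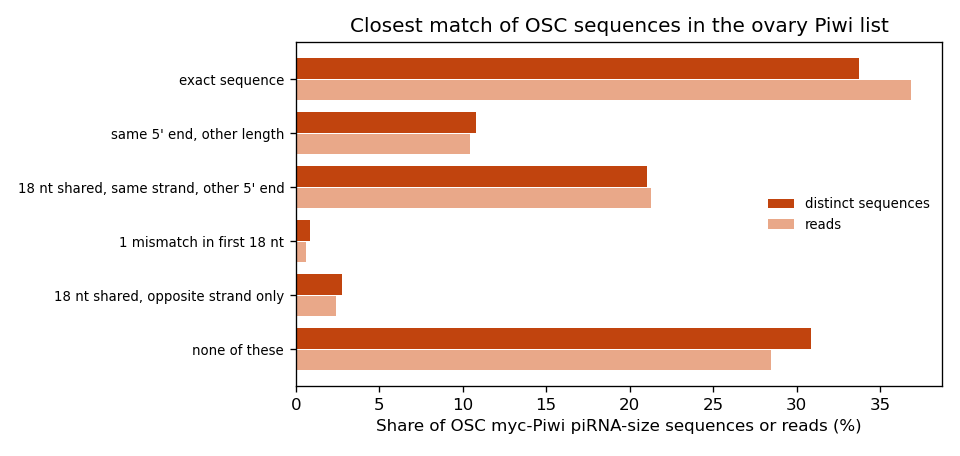
Closest match in the ovary Piwi list for the 836 OSC sequences, as a share (x axis, %) of distinct OSC sequences (dark bars) and of OSC reads (light bars); each sequence is in 1 class. Exact matches hold 33.7% of sequences and 36.9% of reads, and sequences with no match of these kinds hold 30.9% of sequences and 28.4% of reads.

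Abundant OSC piRNAs were found in the ovary more often than rare ones. Of the 100 most abundant OSC sequences 49 were listed in the ovary (38.9 to 59.2%), of the next 300 33.0% (27.7 to 38.6) and of the last 436 30.7% (26.4 to 35.3). The starting base also went with listing. Among 765 OSC sequences with 1U 35.2% were listed (31.8 to 38.7), and among the 71 with another base 18.3% (10.1 to 29.3). Listing hardly differed by position 10, at 35.3% of sequences with 10A (28.8 to 42.2) and 33.2% of those without (29.6 to 37.1).

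The 10 most abundant OSC sequences all began with U, and 4 of them were listed in the ovary. The first was 29 nt long with A at position 10 and had 1172 OSC reads (0.787%), against 1666 ovary reads (0.00989%), where it ranked 1142. That is a 79.6-fold higher share in OSC. The second, 25 nt long, had 1035 OSC reads (0.695%) and 576 ovary reads (0.00342%), a 203-fold higher share. OSC held both in much larger shares.

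Rank 3, 27 nt long, had 986 OSC reads, and rank 4, 26 nt long, had 941. Neither was listed in the heterozygous ovary or in the krimp mutant ovary Piwi library, and no sequence of the heterozygous ovary Piwi list shared 18 nt with them. Their shares were at least 1127-fold and 1075-fold higher in OSC than in the heterozygous ovary. Ranks 5 and 8 were length variants of 1 piRNA 5′ end, of 28 nt with 924 OSC reads and of 27 nt with 808. Of this pair the ovary listed the 28 nt form, with 202 reads, and its share was 517-fold higher in OSC, the widest ratio among the 282 shared sequences.

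Ranks 6, 7 and 9 were not listed but overlapped ovary sequences on the same strand. They had 876, 850 and 785 OSC reads. Rank 10, 27 nt long, had 775 OSC reads and 190 ovary reads, a 461-fold higher share in OSC. None of the 10 was listed in the Aub or AGO3 library of krimp heterozygous ovaries.

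The ovary's leading piRNAs were mostly missing from OSC. Of its 10 most abundant sequences, which also all began with U, 1 was listed in OSC, all 10 in the krimp mutant Piwi library and 9 in the heterozygous Aub library. The leading ovary sequence, 25 nt long with A at position 10, was not listed in OSC and had 67325 ovary reads (0.400%). Its share was at least 6.01-fold higher in the ovary than in OSC. The second, 27 nt long, was likewise not listed in OSC and had 33779 ovary reads, a share at least 3.02-fold higher in the ovary.

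The exception ranked 4 in the ovary and 21 in OSC. This 26 nt sequence had 534 OSC reads (0.359%) and 23734 ovary reads (0.141%), a 2.54-fold higher share in OSC, and it was listed in the heterozygous Aub and AGO3 libraries too.

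Only 21 ovary sequences had a share that OSC could have listed, at or above 0.0671%. Of these, 1 was listed in OSC (0.120 to 23.8%), and 2 had a 5′ end that OSC listed. For the other 20 the share was at least 1.03-fold to 6.01-fold higher in the ovary, and the bound passed 2-fold for 4 of them. The OSC depth thus limits what can be said of ovary sequences below this share, which are nearly all of them.

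All 282 shared sequences had a higher share in OSC, with 100% past 2-fold and 98.6% past 4-fold. This direction is largely set by the lists, since a sequence needed 0.0671% of reads to be listed in OSC, a share that 21 ovary sequences reached. The ratio ran between 2.44-fold and 517-fold with a median of 58.3-fold, or 5.86 on the log2 scale. The smallest ratio belonged to a 25 nt sequence with 104 OSC reads and 4820 ovary reads. Next above it were the sequence of ovary rank 4 and a 29 nt sequence with 114 OSC reads and 3586 ovary reads, at 3.60-fold.

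In the ovary the shared sequences spread over the list but leaned to its more abundant part, with a median rank of 11885.5 of 48111. They had a median of 328.5 reads and a range of 100 to 23734, and 21 of the 282 were among the ovary's 800 most abundant. Across the 282, ranks in the 2 libraries were nearly unrelated (Spearman's rho 0.103), a description across sequences that overlap and so are not independent. Their median in OSC was 148 reads, near the minimum of 100, so the read minimum and counting error may have lowered rho.

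The shared sequences are members of the OSC list and identical in both libraries, so their values can differ between libraries only through read weights. Their 1U share was 96.6% of OSC reads and 97.5% of ovary reads, while ovary reads of sequences that OSC did not list had 83.1%. U over positions 2 to 23 stood at 31.1% of bases in OSC reads of the shared sequences and at 30.5% in their ovary reads, against 26.3% in the other ovary reads. Their mean length was 26.5 nt in OSC and 26.4 nt in the ovary. The OSC sequences missing from the ovary had a 1U share of 89.7% and U at 32.0%.

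Overlapping sequences were joined into groups wherever they shared 18 nt on either strand, to see how the precursors were covered. Within OSC the 836 sequences formed 540 groups, of which 170 held more than 1 sequence and the largest held 13 sequences. Every OSC group was covered on 1 strand only. In the ovary 1606 of 14174 groups had sequences on both strands, and these held 33.2% of reads. In the krimp mutant ovary Piwi library, with 29648 sequences, such groups held 11.7% of reads. The contrast was smaller in lists of equal length. Among the 800 most abundant sequences of each library, 0 of 520 OSC groups and 2 of 562 ovary groups had both strands, with 1.49% of ovary reads.

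Joining the sequences of both libraries together placed more OSC reads beside ovary reads than exact matching did. Of 523 groups with OSC sequences, 339 also held ovary sequences, with 73.4% of OSC reads and 6.69% of ovary reads. In 135 of the 339 no identical sequence was shared. The other 184 groups, with 246 OSC sequences, had no ovary sequence. In 288 of the 339 groups all ovary reads lay on the OSC strand, in 15 all lay on the other strand and in 36 both strands had reads. Summed over the 339, 92.5% of ovary reads were on the OSC strand.

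The group with most OSC reads had 14 OSC sequences with 3074 reads (2.06%) and 11 ovary sequences with 2198 reads (0.0130%), none of them identical. Ovary reads in it were split between the strands, with 42.1% on the OSC strand. The second group had 10 OSC sequences with 2523 reads and 12 ovary sequences with 7906 reads, all on 1 strand. The third had 4 OSC sequences with 2406 reads and 3 ovary sequences with 952 reads, all 3 shared, and a 286-fold higher share in OSC.

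The tenth group had 8 OSC sequences with 1336 reads and no listed ovary sequence, the most OSC reads of any such group. The eleventh was one of the few that were abundant on both sides. It had 3 OSC sequences with 1252 reads (0.841%) and 25 ovary sequences with 46865 reads (0.278%).

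The OSC share was past 2-fold higher in 320 of the 339 groups (94.4%), with a median of 28.1-fold, and the read minimum again favours this direction. In 7 groups the ovary share was higher. The lowest ratio, 0.194, belonged to a group with 1 OSC sequence of 102 reads and 73 ovary sequences with 59614 reads, of which 15.4% lay on the OSC strand. The next, at 0.333, had 1 OSC sequence of 113 reads and 39 ovary sequences with 38371 reads, all on the OSC strand.

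**Figure D4:**
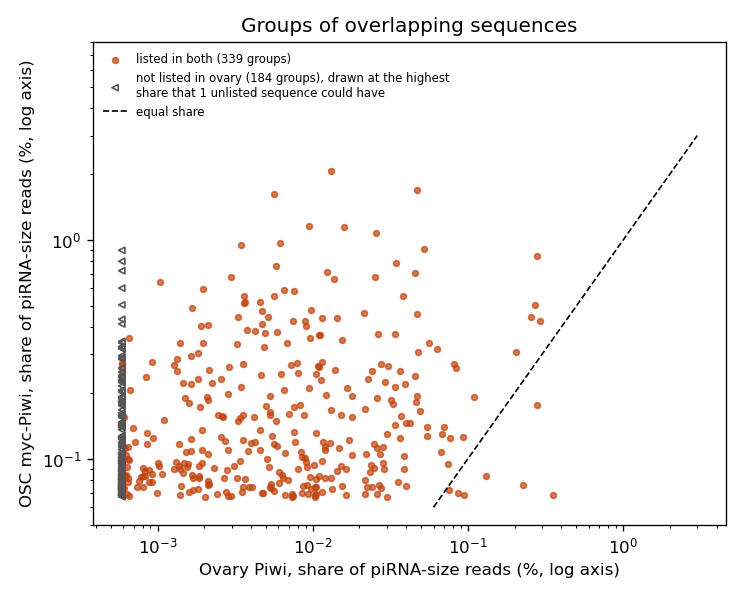
Share of kept reads in each joined group that holds OSC sequences, for the ovary (x axis, %, log axis) and OSC (y axis, %, log axis). The 339 filled points have reads in both libraries, the 184 triangles have no listed ovary sequence, and nearly all points lie above the dashed line of equal share, with 7 below it.

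No pair of different sequences with a 10 nt 5′ overlap was found within the 800 most abundant of either Piwi library. Of the 800 OSC sequences 1 was counted (0.125%, 0.00316 to 0.694), where longer overlaps of 11 to 20 nt gave 0 on average. Different sequences that pair would both be counted, so this 1 matched only itself. Its first 10 nt were their own reverse complement. Shorter overlaps of 8 and 9 nt gave 1.25% and 0.25% in OSC, and 1.125% and 0% in the ovary. The values at 8 nt may also include self-matches. In the ovary 0 of 800 had a 10 nt partner (up to 0.460%), where the longer overlaps averaged 0.0875%. Between the libraries no pair was found in either direction. The same measure gave 14.1% (11.8 to 16.7) for the 800 most abundant heterozygous Aub sequences with partners in AGO3. Pairs could thus be detected between those libraries at this list length, which does not show that Piwi pairs would be. Those 800 came from 3158 kept Aub sequences and the ovary Piwi 800 from 48111. Partners among less abundant sequences of the same Piwi library were not sought.

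With partners sought in the heterozygous AGO3 library, 2 of 800 OSC sequences and 3 of 800 ovary Piwi sequences had one. In the Aub library, 1 OSC sequence and 2 ovary Piwi sequences did.

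OSC piRNAs were rare in the germline proteins' libraries. Of the 836 OSC sequences 5 were listed in heterozygous Aub and 5 in AGO3, 0.598% each (0.194 to 1.39). Of the 800 most abundant ovary Piwi sequences 18.3% were listed in Aub (15.6 to 21.1) and 10.9% in AGO3 (8.80 to 13.2). In heterozygous total small RNA, 18.5% of OSC sequences and 91.5% of those 800 were listed. The ovary abundance of the 2 sets was not alike.

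Within the ovary's 800, where abundance is closer, the 21 sequences that OSC also listed were found in Aub in 14.3% of cases (3.05 to 36.3), and the other 779 in 18.4% (15.7 to 21.3). In AGO3 the order was the other one, at 14.3% of the 21 (3.05 to 36.3) and 10.8% of the 779 (8.69 to 13.2). The median ovary ranks were 383 for the 21 and 401 for the 779. The intervals overlap for both proteins, so a difference was not detectable there. No mRNA was measured, so cell source and knockdown rest on the labels, and the small RNA features given here are what the files hold on them.

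**Figure D5:**
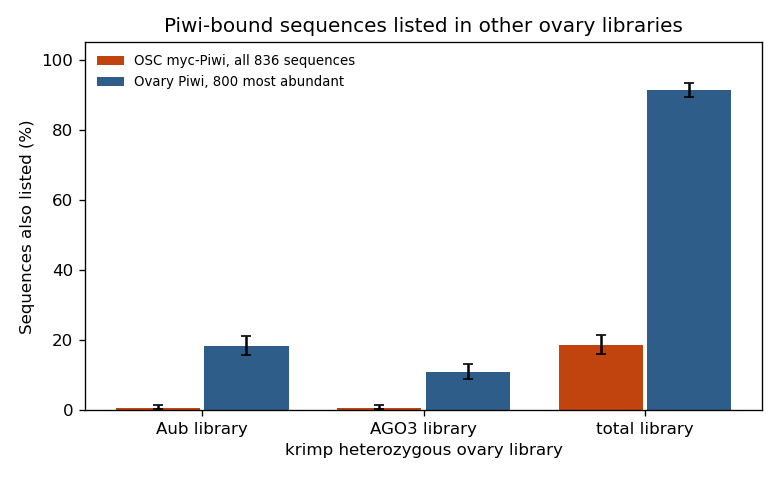
Share of sequences (y axis, %) that the Aub, AGO3 and total libraries of krimp heterozygous ovaries also listed (x axis), for all 836 OSC sequences (left bars) and the 800 most abundant ovary Piwi sequences (right bars). Error bars are exact Clopper-Pearson 95% intervals, and the OSC bars stand at 0.598% for Aub and AGO3 and at 18.5% for total.

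The OSC sequences were also looked up in other libraries of the same cells and in krimp mutant ovaries. The OSC myc-Aub library, with 559 sequences, listed 265 of the 836 (31.7%), nearly as many as the 282 that the 48111 ovary sequences included. By myc-Piwi reads it covered more, at 41.9% against 36.9% for the ovary list. The OSC myc-AGO3 library, with 569 sequences, listed 49. The krimp mutant Piwi library, with 29648 sequences, listed 350 of the 836 (41.9%, 38.5 to 45.3), more than the 282 of the longer heterozygous list. The 2 ovary Piwi libraries together listed 368, of which 86 were in the mutant alone.

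The base after the 3′ end was read where another listed sequence of the same library ran on past it. It was U for 57.4% of 209 OSC sequences (50.4 to 64.2) and for 51.6% of 26480 ovary sequences (51.0 to 52.2). Within the 800 most abundant it was U for 58.6% of 198 OSC sequences (51.4 to 65.5) and 62.5% of 136 ovary sequences (53.8 to 70.6), and these overlap. The last base of the same RNAs was U in 22.5% of OSC sequences and 29.3% of ovary sequences. U after the 3′ end is what cutting of a precursor at U leaves behind, since the next piRNA then starts with it.

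Few direct neighbours were counted in OSC. Of OSC pairs whose next 5′ end lay 1 to 30 nt past a 3′ end in the same group, 4 of 13 were directly adjacent. Such pairs share no bases, so they were counted only where other listed sequences joined them into a group. In OSC 370 of the 540 groups held a single sequence, which limits this count. In the ovary 479 of 3363 were (14.2%), where each other distance averaged 99.4 pairs. Ovary pairs fell with distance, from 262 at 2 nt to 18 at 30 nt, so this average is a low baseline for direct neighbours. Distance 0, on the other side of the adjacent position, held 315 pairs. The OSC number is too small to set beside the ovary value.

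Most 5′ ends had a single listed length in both libraries. In OSC 10.6% of 745 ends had more than 1 length, and in the ovary 25.8% of 34132. With 800 sequences each the values were 10.6% in OSC and 8.70% in the ovary, the other order. Concentration turned in the same way. The 10 most abundant sequences held 6.14% of OSC reads and 1.58% of ovary reads, but within the 800 most abundant they held 6.30% of OSC reads and 8.13% of ovary reads.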

How the data were processed

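The authors deposited, for each library, distinct small RNA sequences with their read counts, as whole numbers that are not normalized. Per the labels' protocols, RNA bound to immunopurified Piwi proteins was size-selected on gels, and a TruSeq Small RNA kit made the libraries. The build was dm3, per the submitters' processing notes. The aligner is not given in the sources used here, nor is any filter on genome matches. Groups came from the sample titles. Sequences of 23 to 29 nt without any 15 nt of 2S rRNA were kept, and shares are of kept reads. With 1 library a group, no test was run, and shares have exact Clopper-Pearson 95% intervals. Overlap, joining and share measures were tested on simulated data, the overlap only between separate lists. Within a single list the overlap also counts a sequence that matches itself. Named sequences were the 10 most abundant of each library and the 5 shared ones with the largest and the 5 with the smallest OSC over ovary ratio, as none was higher in the ovary. A call was a share ratio past 2-fold. The comparison and its measures were chosen with earlier results of these data known. The joint groups, closest matches, other libraries and the base after the 3′ end were added after the files were seen. Genomic origin was not analysed here. Python 3.11.15, numpy 2.4.6, scipy 1.17.1 and matplotlib 3.10.9 were used.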

Additional observations from a re-analysis of the deposited data

How the results depend on the processing

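With 42 alternatives over 10 results, 12 gave the same value within error, 27 moved and 3 changed direction. Differences are OSC minus ovary, in percentage points unless a unit is given. The 1U difference was 8.96 and became 12.2 with sequences counted once, 1.95 with the 800 most abundant, 8.72 without the 10 most abundant and 11 with krimp mutant Piwi. It turned to -4.27 when ovary sequences below the smallest share OSC can list were left out, which kept 21. The 10A difference was -4.41 and became -2.67 counted once, -4.00 at all lengths, -12.2 against those 21, -3.64 without the 10 most abundant and -5.44 with the mutant. The length difference was 0.294 nt and became 0.271, 0.304, 0.477, 0.246 and 0.217 nt (counted once, 800 most abundant, the 21, without the 10 most abundant, mutant). The U difference over positions 2 to 23 was 5.34 and became 5.57 counted once, 4.62 against the 21 and 3.48 with the mutant. The difference in the share of the 10 most abundant was 4.57 and turned to -1.83 with 800 each and -57.8 against the 21, since the share depends on list length. The share of OSC sequences listed in the ovary was 33.7% and became 2.50% with 800 each, 0.120% against the 21 and 41.9% with the mutant. For 5′ ends 43.0% became 3.64%, 0.268% and 51.8%. The difference in reads of groups with both strands was -33.2 and became -1.49 with 800 each, -11.7 with the mutant, and -39.8 and -27.5 with 16 and 20 nt shared. The 10 nt overlap and the counts of ratios past 2-fold kept their values within error or 1.5 times. Dropping sequences that match microRNA hairpins was not run, since no hairpin table was used here. No paired analysis was possible because each group had 1 library. OSC depth limits the comparison, since a sequence below 0.0671% of kept reads was not listed there.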
